A study of Caenorhabditis elegans with 2 samples.

Results

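Intronic binding of LSY-2 away from promoters was described in whole L1 larvae of Caenorhabditis elegans. The members were peaks of the authors' reproducible list whose summit, the position of highest signal, lay inside a protein-coding gene but in no exon of any gene. A summit from 1000 bp upstream to 200 bp downstream of a transcript start of a protein-coding, tRNA, snoRNA or snRNA gene was left out. The rule gave 394 of 4218 peaks (9.34%, 95% exact Clopper-Pearson interval 8.48 to 10.3). The other peaks were 2864 in such a promoter window, 779 in intergenic sequence outside it, 171 in exons and 10 in introns of other gene types alone. The library labels give strain OP367, genotype unc-119(tm4063) III; wgIs367, in which the inserted transgene wgIs367 supplies eGFP-tagged LSY-2, and mixed sex L1 larvae as whole organisms. There were 2 biological replicates of this 1 group, so no condition could be compared with another. The tagged protein came from an inserted transgene, and all cells of the larva were pooled, so a peak carries no information on which cells were bound.

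LSY-2 is a C2H2 zinc finger transcription factor, studied for its role in making the left and right ASE taste neurons different. Introns of C. elegans genes can hold enhancers as well as internal promoters that give shorter transcripts of the host gene. The host gene of a peak here means the protein-coding gene whose span contains the summit, which need not be a gene that LSY-2 regulates.

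Sequences of 101 bp centred on the summit are shown for 4 of the strongest members that hold both of the short sequences taken up below, GAGAGA and GACGCA, then for 2 that hold GACGCA alone and 2 that hold neither. Capitals mark matches on either strand to either of these, to a further 6-mer, ACCGTA, or to 1 of 3 longer sequences, which are AGACGCAGA, then GTACGCAAA, then CGTGTTCTC. Letters were read 5′ to 3′ on the forward strand of WBcel235 (ce11) from the RefSeq genome file. The windows are chrIV:2602108-2602208 in epg-9, chrV:10042423-10042523 in F57A8.1, chrIII:1926571-1926671 in pqn-41 and chrIII:10096684-10096784 in spop-1. They continue with chrIII:12612599-12612699 in Y111B2A.12, chrV:6224573-6224673 in W06H8.6, chrX:2997031-2997131 in Y41G9A.17 and chrX:6296528-6296628 in mom-1.
epg-9: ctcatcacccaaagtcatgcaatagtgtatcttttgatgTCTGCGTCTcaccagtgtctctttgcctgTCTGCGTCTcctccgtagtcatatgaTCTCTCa
F57A8.1: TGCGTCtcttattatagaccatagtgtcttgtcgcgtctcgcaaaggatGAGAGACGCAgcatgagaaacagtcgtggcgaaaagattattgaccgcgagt
pqn-41: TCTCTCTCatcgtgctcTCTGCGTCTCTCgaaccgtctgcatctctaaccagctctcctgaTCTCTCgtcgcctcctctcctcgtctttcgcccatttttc
spop-1: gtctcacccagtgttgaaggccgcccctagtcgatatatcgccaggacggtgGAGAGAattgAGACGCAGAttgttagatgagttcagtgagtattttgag
Y111B2A.12: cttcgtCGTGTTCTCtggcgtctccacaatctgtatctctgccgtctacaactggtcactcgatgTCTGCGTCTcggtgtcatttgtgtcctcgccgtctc
W06H8.6: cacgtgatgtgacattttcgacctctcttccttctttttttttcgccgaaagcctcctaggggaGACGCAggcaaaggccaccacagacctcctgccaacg
Y41G9A.17: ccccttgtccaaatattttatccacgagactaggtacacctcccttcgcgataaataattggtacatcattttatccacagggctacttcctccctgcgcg
mom-1: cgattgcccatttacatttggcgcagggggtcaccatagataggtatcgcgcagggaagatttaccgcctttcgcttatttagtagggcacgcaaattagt

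The 2 windows that hold neither short sequence belong to members of comparable strength. Y41G9A.17 had a pooled signal of 570 and mom-1, which encodes a Porcupine-type protein needed for Wnt secretion, one of 528. The window in epg-9, an autophagy gene, holds AGACGCAGA at 2 places and its peak had a pooled signal of 580. Signals are values the authors assigned to each peak, by a statistic that the deposited listings do not name.

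The strongest member stood in the first intron of slc-36.4, a gene of the amino acid transporter family SLC36, on chromosome I from 9150197 to 9150525. Its pooled signal of 929 put it at rank 94 of the whole list. Its signals were 520 in replicate 1 and 413 in replicate 2 (mean 466 ± 76.1, SD, n = 2), and its summit lay 684 bp downstream of the nearest annotated start. The second member lay in intron 4 of Y111B2A.12, 3360 bp downstream of the nearest start, with a pooled signal of 741 and replicate signals of 423 and 316. The peak in epg-9 had replicate signals of 361 and 213, that in Y41G9A.17 had 316 and 240, and that in F57A8.1 had 312 and 232. At mom-1 the replicate signals were 252 and 261, so replicate 2 was the higher there, while replicate 1 was the higher at each of the other 19 of the 20 strongest members.

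Below these came C48D1.5 (pooled signal 497), the collagen gene col-72 (440), Y56A3A.7 (391) and zfp-1, which encodes a PHD zinc finger protein related to mammalian AF10 (377). The MAP kinase-interacting kinase gene mnk-1 had a peak of 367, T28F4.1 one of 358, F28F8.7 one of 355 and mef-2, a MADS-box transcription factor gene, one of 344. The last of the 20 were in pqn-41 (341 and 311), W06H8.6 (327), the nuclear hormone receptor gene nhr-19 (313), spop-1 (309) and Y43F8B.2 (270). In 19 of these 20 the nearest protein-coding start belonged to the host; for mom-1 it belonged to cest-16, 3364 bp away. The 20 peaks fell on all 6 chromosomes.

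**Figure D1:**
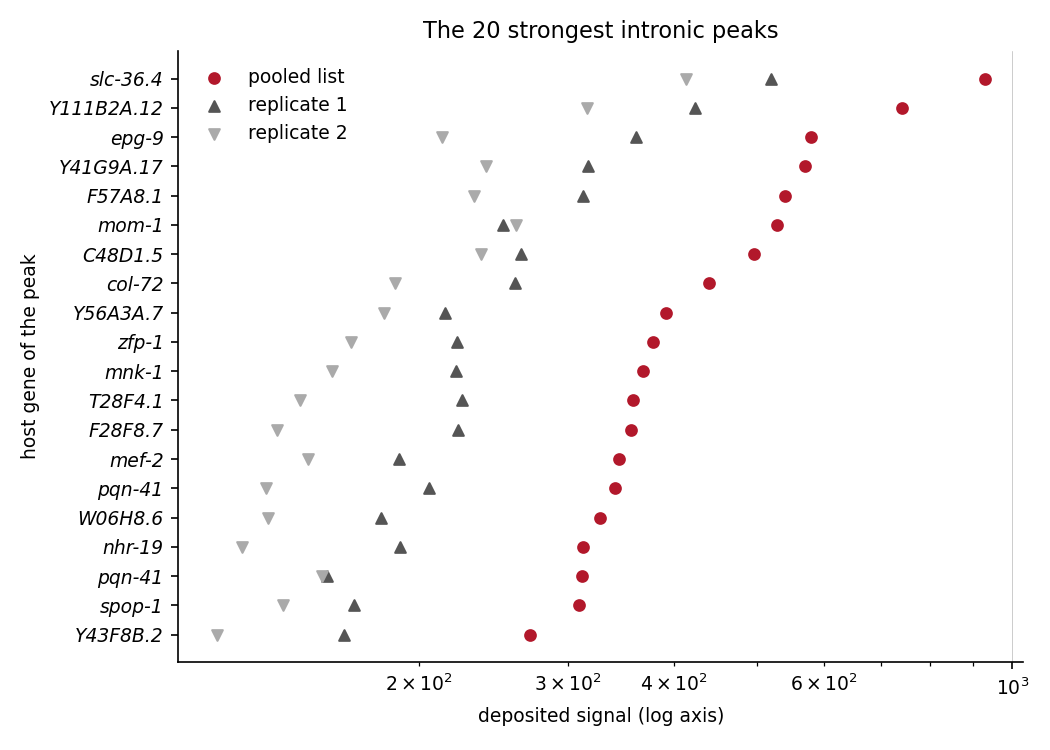
Deposited signal (log axis) of the 20 strongest intronic peaks, 1 row per peak labelled by its host gene, in the pooled list (circles), replicate 1 (upward triangles) and replicate 2 (downward triangles). Pooled signals run from 929 at slc-36.4 to 270 at Y43F8B.2, and only at mom-1 is replicate 2 above replicate 1.

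Intronic members were weaker than promoter peaks. Their pooled signal had a lowest value of 42.3, a median of 64.1 and a highest value of 929, against a median of 90.9 for all other peaks. Of the 394 members, 122 (31.0%, 95% exact interval 26.4 to 35.8) lay above the median of the whole list, 87.4, against 1987 of 3824 other peaks (52.0%, two-sided Fisher's exact test, p = 1.56e-15). The share was 31.0% in members, against 57.6% in promoter-window peaks alone (Fisher's exact test, adjusted p = 1.87e-22, Benjamini-Hochberg over 10 tests by class). Intergenic peaks outside promoter windows had a median of 69.0 and a share of 35.3%, and the difference from members did not pass Fisher's exact test (adjusted p = 0.251). The peaks were counted as independent units in these tests, although neighbouring peaks share a locus.

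The share of intronic peaks grew with falling strength. Among the 100 strongest peaks 1 was a member (1.00%), among ranks 1001 to 2000 the share was 6.90%, and among ranks 3001 to 4218 it was 14.9% (95% exact interval 13.0 to 17.1). The same rule applied to the pooled peaks that missed the reproducibility threshold gave 24.8% at ranks 4219 to 10000 and 35.9% at ranks 20001 to 30000. Promoter-window peaks ran the other way, with 93.0% of the first 100 and 26.5% of the last 10000. Intron that the rule allows made up 26.3% of the genome, a share between those of the first and second of the classes below the threshold. These shares are descriptions without a test.

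**Figure D2:**
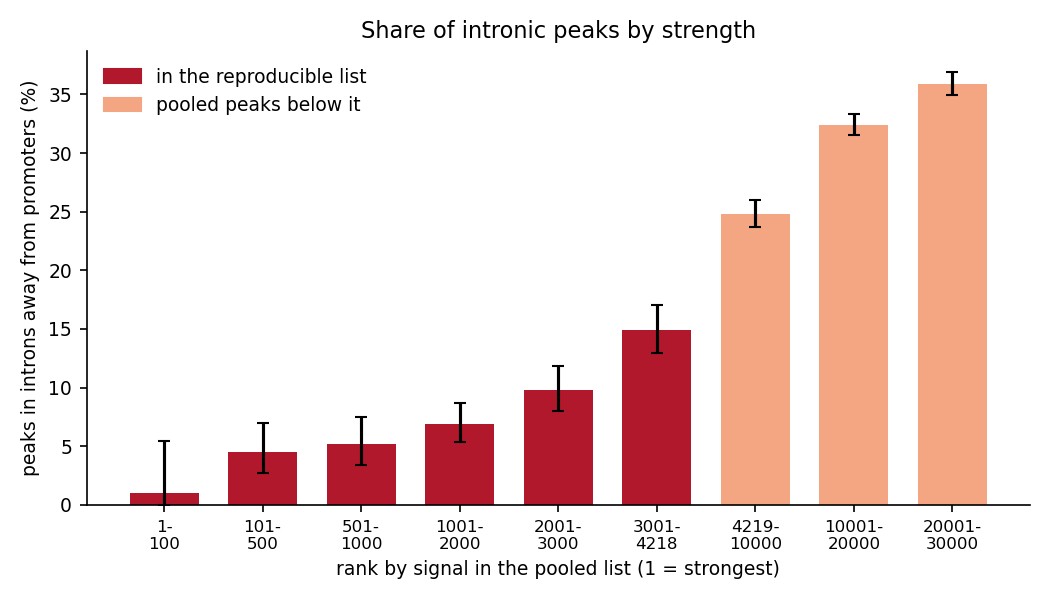
Share of pooled peaks (%) that met the intronic rule by rank of signal, with 95% exact Clopper-Pearson intervals. Dark bars are ranks in the reproducible list and light bars are pooled peaks below it, and the share grows from 1.00% at the left to 35.9% at the right.

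All peaks here come from a list chosen for agreement of the replicates, so presence in both replicates was largely set by that choice. A replicate summit within 200 bp was present in both replicates for 390 of 394 members (99.0%) and 3789 of 3824 other peaks (99.1%, Fisher's exact p = 0.781). Within 100 bp it was present for 365 of 394 members and 3679 of 3824 other peaks (members minus others, -3.57 percentage points, Fisher's exact p = 0.00191). Summits among the 4218 strongest of both replicates were less common for members, at 262 of 394 (66.5%) against 79.1% of other peaks (Fisher's exact p = 3.36e-08), and against 82.1% of promoter-window peaks (adjusted p = 1.74e-11). The difference from the 70.1% of intergenic peaks did not pass Fisher's exact test (adjusted p = 0.328). Rank in a replicate follows signal, which was lower in members, so these shares are not separate from the difference in pooled signal. In the stronger part of the list the counts were 120 of 122 members and 1973 of 1987 other peaks (Fisher's exact p = 0.236). Replicate 1 had the higher signal at 313 of the 390 members, with a median log2 ratio of replicate 1 over replicate 2 of 0.45 (range -1.26 to 2.57), against 0.33 at other peaks. The ratio lay within 1 log2 unit for 323 members. Across members the log2 signals of the replicates had a Pearson r of 0.77 and a Spearman rho of 0.62 (n = 390 peaks of the same 2 libraries), against 0.89 and 0.83 across 3789 other peaks, whose signals cover a wider range.

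**Figure D3:**
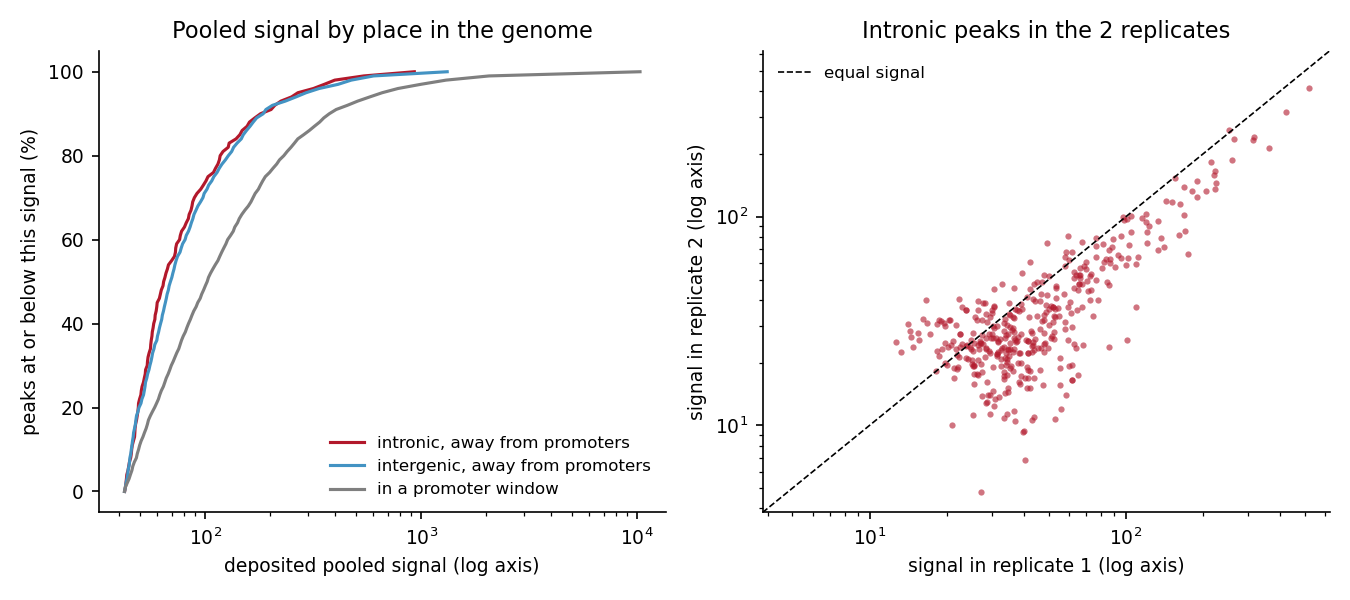
Left, percentage of peaks at or below each pooled signal (log axis) for intronic, intergenic and promoter-window peaks; right, signal of the intronic peaks in replicate 2 against replicate 1 (log axes), with equality as a dashed line. The intronic and intergenic curves lie close together and left of the promoter curve, and 313 of 390 intronic peaks had the higher signal in replicate 1.

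The members lay in long introns. The eligible intron sequence was 26.4 Mb, which gave 14.9 members per Mb (95% exact Poisson interval 13.5 to 16.5). Introns up to 500 bp held 29.0% of that sequence and 34 members, or 4.44 per Mb (3.08 to 6.21). Introns over 5000 bp held 12.1% of it and 130 members, or 40.8 per Mb (34.0 to 48.4), and the 3 classes between them gave 7.42, 10.2 and 31.2 per Mb from short to long. The median member intron was 3346.5 bp long, within a host gene of median length 11301 bp, against 2312 bp for all genes with eligible intron. Genes with long introns offer more sequence for a member, so this contrast in gene length was partly set beforehand. The eligible length leaves out exons and the promoter windows.

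First introns held 130 members, or 24.8 per Mb (20.7 to 29.4), the second 15.3 per Mb, the third 12.3 per Mb, and later introns 11.7 per Mb (9.94 to 13.6). Within introns over 2000 bp, first introns had 42.7 members per Mb (35.0 to 51.7) and later introns 31.6 (26.8 to 37.0), and these intervals overlap. Along the intron, with each cut in 3 equal parts in the direction of the host gene, the part nearest the 5′ end had 15.3 per Mb, the middle 17.9 and the part nearest the 3′ end 11.2. The summit was a median of 1715.5 bp from the nearest protein-coding start. That start belonged to the host for 351 of 394 members; the summit was downstream of it for 251 and upstream, as with an internal start of the host, for 100. Only 37 members lay over 5000 bp from any protein-coding start, and 334 members also met the rule when starts of every annotated gene type were used.

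**Figure D4:**
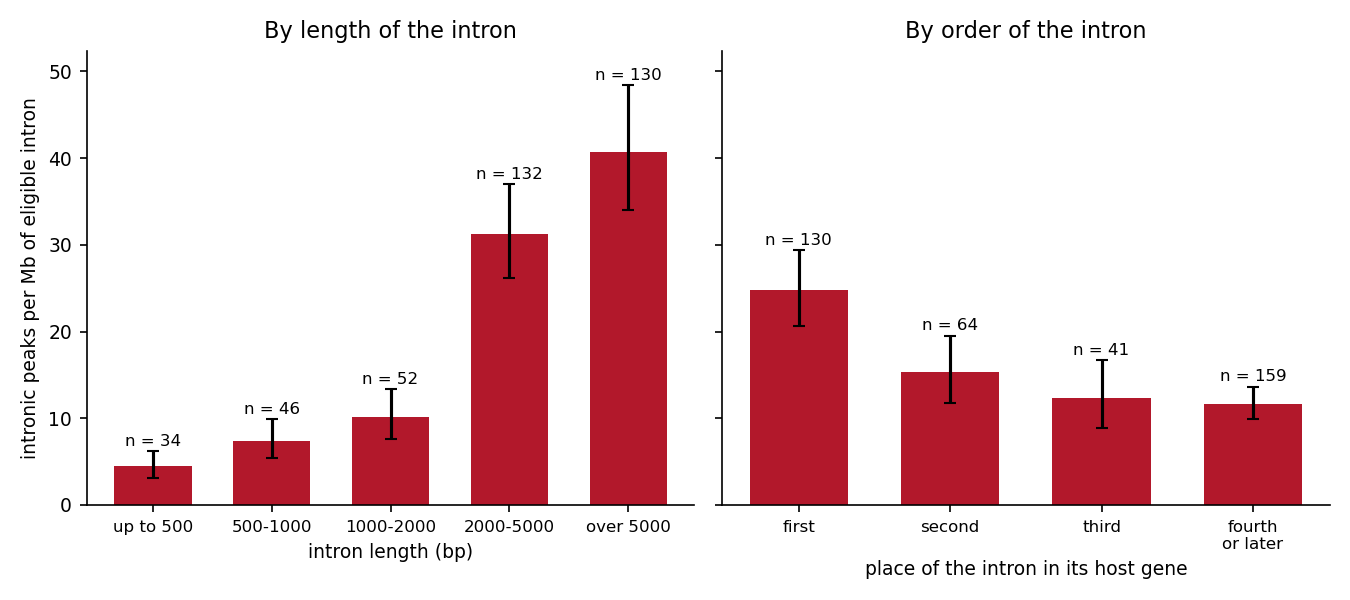
Intronic peaks per Mb of eligible intron by intron length (left) and by the place of the intron in its host gene (right); bars give the density, lines the 95% exact Poisson interval and n the number of peaks. Density rises from 4.44 per Mb in introns up to 500 bp to 40.8 per Mb over 5000 bp, and is 24.8 per Mb in first introns.

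By chromosome, III held 94 members (21.5 per Mb of eligible intron, 95% exact Poisson interval 17.4 to 26.3) and V held 42 (9.04 per Mb, 6.52 to 12.2). Chromosomes I, II, IV and X had 66, 60, 70 and 62 members, or 13.5, 16.3, 16.0 and 14.0 per Mb. Set against other peaks, III held 23.9% of members and 19.3% of other peaks, and V held 10.7% of members and 14.7% of other peaks. Neither difference passed (Fisher's exact test, adjusted p = 0.101 for both over 6 chromosomes). X held 15.7% of members and 13.9% of other peaks (Fisher's exact test, adjusted p = 0.484).

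Members lay near another peak of the list more often than other peaks did. The difference was 15.2 percentage points within 2000 bp but 4.67 points within 1000 bp (Fisher's exact p = 0.0124). Another summit of the list lay within 2000 bp for 165 of 394 members (41.9%), against 26.7% of other peaks (Fisher's exact p = 7.06e-10), 24.0% of promoter-window peaks (adjusted p = 2.21e-12) and 33.1% of intergenic peaks (adjusted p = 0.00749). The nearest such summit was itself a member for 93 and in a promoter window for 57. A close pair counts for both of its peaks, while the tests here took peaks as independent, so their p-values may be too small. There were 296 host genes, and 61 of them held more than 1 member. In all 113 members shared their intron with another, in 46 introns.

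Both hosts with the most members held 8. In pqn-41, which encodes a glutamine-rich protein with a part in the death of the linker cell, the 8 summits ran from 1921397 to 1938896 on chromosome III, in 3 introns. Their pooled signals were 243, 72.2, 265, 341, 311, 51.6, 66.0 and 95.8 in order along the gene, so the 5 in intron 15, a 7770 bp intron, included the 4 highest. In ppfr-1, a gene for a regulatory subunit of protein phosphatase 4 on chromosome I, the 8 had signals of 43.2 to 154 with a median of 55.9. All of the ppfr-1 members but 1 stood below 120, whereas pqn-41 had 4 above 200.

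Of the next hosts, daf-5, a Sno/Ski family gene of the TGF-beta dauer pathway, held 5 members with signals of 43.1 to 201. The forkhead gene fkh-7 held 5 (47.6 to 128) and the formin gene frl-1 held 5 (42.6 to 56.0). The 4 members of nhr-19 lay in a single intron with signals of 128, 117, 313 and 44.0 along the chromosome. The cGMP-dependent protein kinase gene pkg-2 also had its 4 in 1 intron (59.8 to 147). The MAP kinase phosphatase gene vhp-1 (47.3 to 96.1) and the calcium/calmodulin-dependent kinase II gene unc-43 (48.2 to 61.1) held 4 each, and Y111B2A.12 held 3 (54.7 to 741).

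Host genes made up 296 of 17253 protein-coding genes with eligible intron, or 1.72%, with 14.7 members per Mb when intron is summed over genes. Among transcription factors of development other than homeobox and nuclear receptor genes, 19 of 153 (12.4%) were hosts, with 31 members, or 65.6 per Mb (95% exact Poisson interval 44.5 to 93.0). Besides mef-2 (344) these included the Smad gene daf-14 (267), the Schnurri-related gene sma-9 (213) and the Mad-like bHLH gene mdl-1 (158). Among nuclear hormone receptor genes 10 of 269 (3.72%) were hosts, with 15 members (36.7 per Mb, 20.6 to 60.6), 4 of them in nhr-19. The hosts included nhr-3 (144), nhr-46 (135) and daf-12, which encodes the receptor of dafachronic acid (94.3). Of 102 homeobox genes 3 were hosts (2.94%, 11.9 per Mb, 2.45 to 34.8): the LIM homeobox gene lin-11 (147), the Hox gene mab-5 (129) and the POU gene ceh-18 (52.7). The lists were not tested, and genes with long introns offer more sequence. The intervals of all lists took members of the same gene as independent and may be too narrow. With the strongest peaks of replicate 2 alone, that is without replicate 1, 5 homeobox genes were hosts.

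Genes of signalling pathways had 7 hosts of 70 (22.3 per Mb, 8.96 to 45.9). The strongest were the AMP-activated kinase gene aak-2 (203), the ERK gene mpk-1 (179), the TOR kinase gene let-363 (170) and pdk-1 (128). Genes of synapses and vesicle release had 6 hosts of 64 (9.38%) with 11 members (34.6 per Mb, 17.3 to 61.9), 4 of them in unc-43. The leading hosts were ida-1 (89.4), cab-1 (68.6), unc-43 (61.1) and pde-4 (56.6). RNA-binding protein genes had 4 of 62 (6.45%, 29.4 per Mb, 8.02 to 75.3). The highest was larp-1 (216), with asd-2 (60.3), ain-2 (45.3) and nhl-1 (45.0) far below it. Among chromatin regulators 2 of 82 were hosts (2.44%, 18.5 per Mb, 5.05 to 47.5): zfp-1 with 3 members (377, 225 and 115) and the class IIa histone deacetylase gene hda-4 (47.8). Without replicate 1, RNA-binding protein genes had 2 hosts and chromatin regulators 4.

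Other neuronal and structural lists had 5 hosts or fewer each. Axon guidance and adhesion genes had 3 hosts of 76 (3.95%, 5.38 members per Mb, 1.11 to 15.7), namely the cadherin gene hmr-1 (78.8), the calsyntenin gene casy-1 (58.4) and the Trio-type exchange factor gene unc-73 (47.2). Ion channel genes had 5 of 282 (1.77%, 5.01 per Mb, 1.63 to 11.7), with unc-9 (56.7), trpa-1 (48.4), irk-3 (46.4) and glr-4 (45.4) the strongest. The receptor list had npr-5 alone of 129 (72.0), the muscle list the tropomyosin gene lev-11 of 59 (87.0), the collagen list col-72 of 125 and the cytoskeleton list unc-119 of 54. Per Mb of intron these 4 lists had 2.22 (95% exact Poisson interval 0.0563 to 12.4), 4.29 (0.109 to 23.9), 23.4 (0.592 to 130.2) and 18.1 (3.73 to 52.8) members in the same order. The cytoskeleton value rests on 3 members of unc-119 alone, the gene mutated in the strain, which is taken up below. The muscle list had 5 hosts without replicate 1 and 2 without replicate 2, and the cytoskeleton list had 2 without replicate 1. Among 1285 chemoreceptor genes srh-2 (111) and srt-52 (54.6) were hosts (0.156%). No C-type lectin gene of 233 and no cytosolic ribosomal protein gene of 32 held a member; their eligible intron was 0.177 and 0.00353 Mb.

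Host genes also carried promoter peaks often. A peak of the list lay in the promoter window of 122 of 296 hosts (41.2%, 95% exact interval 35.6 to 47.1), against 2644 of 16957 non-hosts (15.6%, 15.0 to 16.1). Among genes with over 3747 bp of eligible intron the shares were 36.7% of 177 hosts and 23.1% of 1549 non-hosts, and among those with 680 bp or less 8 of 16 hosts and 15.1% of non-hosts. No test was attached, since adjacent peaks and long genes enter both counts.

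Base composition around members depended on the distance considered. Within 25 bp of the summit the mean G + C content was 43.9% for members, against 48.6% for promoter-window peaks and 44.4% for intergenic peaks. Within 50 bp, 143 of 394 members (36.3%) lay above the list median of 45.5%, against 47.8% of other peaks (Fisher's exact p = 1.32e-05) and 39.3% of intergenic peaks (adjusted p = 0.425). Within 200 bp the order was the opposite, with a mean of 40.1% for members, 39.7% for intergenic peaks and 37.6% for promoter-window peaks. The share above the median was then 17.0 percentage points higher in members than in other peaks (Fisher's exact p = 1.17e-10; a window added after the data were seen). At 100 bp the share did not differ past the threshold (2.76 points higher in members, Fisher's exact p = 0.315). Promoter peaks had a narrow rise with a local dip in G + C on each side, and members and intergenic peaks a lower and wider rise. The promoter mean was 32.7% at 100 to 149 bp but 36.9% at 950 to 999 bp. At 950 to 999 bp members had 36.3% and intergenic peaks 34.5%.

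**Figure D5:**
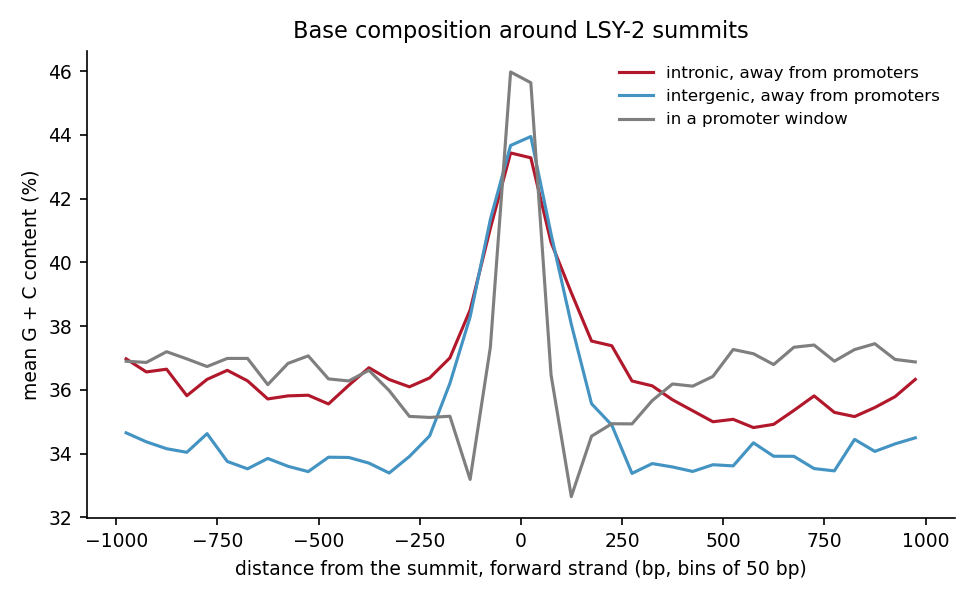
Mean G + C content (%) in 50 bp bins by distance from the summit on the forward strand, for intronic, intergenic and promoter-window peaks. The promoter curve has a higher and narrower maximum at the summit than the intronic and intergenic curves and falls below both beside it.

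Short sequences set member summits apart from their own flanks. Each of 2080 6-mers, taken with its reverse complement, was looked for at positions up to 50 bp from the summit, and again in a window of the same size whose centre lay 300 bp off. By exact McNemar tests with Benjamini-Hochberg adjustment 83 were more frequent at the summit (3.99% of those tested) and 77 less frequent (3.7%). GAGAGA was present at 151 of 394 member summits (38.3%, 95% exact interval 33.5 to 43.3) and in 7.87% of flanks (adjusted p = 2.08e-20). By the same exact test the overlapping AGAGAG came next (28.7% of summits against 4.57% of flanks, adjusted p = 1.21e-17), then AGAGAA (36.0% against 10.7%, adjusted p = 7.12e-15). GACGCA was present at 17.3% of summits and 1.78% of flanks (exact McNemar test, adjusted p = 1.19e-12), and ACGCAG, which overlaps it, at 18.3% and 1.78% (adjusted p = 1.19e-12). Less frequent at summits were 6-mers made of A and T or nearly so, led by AAAATT, at 18.3% of summits against 44.7% of flanks. The next was AAATTT, at 9.39% of summits against 27.9% of flanks. ACCGTA was at 4.82% of summits and 4.57% of flanks (exact McNemar test, adjusted p = 1). These 3 named 6-mers, the first, the fourth and the last above, were taken up because earlier results of these data had picked them.

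In windows of the same length at every 1000 bp of eligible intron (26376 windows) GAGAGA was present in 4.0% and GACGCA in 1.88%. Counted in 25 bp bins over all members, GAGAGA sites reached 113 per bin next to the summit and numbered 4 to 18 per bin beyond 300 bp. A single member could supply many of these sites, up to 19 within 50 bp of its summit, in daf-16. GACGCA sites reached 21 per bin next to the summit and numbered 0 to 5 per bin beyond 300 bp. Both were more common at stronger members. GAGAGA was at 44.7% of the strongest 132 members, 43.5% of the middle 131 and 26.7% of the weakest 131, and GACGCA at 26.5%, 13.7% and 11.5%. At least 1 of the pair was at 179 members (45.4%) and both at 40. Read along the strand of the host gene, GACGCA alone was found at 18 members and its reverse complement alone at 45, so 28.6% of these 63 were in the sense direction (95% exact interval 17.9 to 41.3). For GAGAGA the counts were 58 sense and 79 antisense (42.3%, 33.9 to 51.1).

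Against other peaks fewer 6-mers differed, 30 more frequent (1.44%) and 39 less frequent (1.88%) of 2080 by Fisher's exact test with the same adjustment. GAGAGA was more frequent in members, at 38.3% against 28.6% of other peaks (Fisher's exact test, adjusted p = 0.00792). With starts excluded up to 2000 bp upstream the difference was 8.46 percentage points and did not pass the same exact test (adjusted p = 0.0951). It was at 24.8% of promoter-window peaks and 41.1% of intergenic peaks, so members stood above promoter-window peaks but not above intergenic peaks (Fisher's exact test against intergenic peaks, adjusted p = 1). By the same exact test AGAGAT (21.3% of members against 12.2% of other peaks, adjusted p = 0.000837) was more frequent, as was GAGATC (6.60% against 2.22%, adjusted p = 0.00152). So were AGAGAA, at 36.0% of members against 26.4% of other peaks, and AAAAAG, at 31.7% against 22.0%. The 5 leading less frequent 6-mers each contained CG. By Fisher's exact test ACGCGC was at 4.06% of members against 13.6% of other peaks (adjusted p = 2.10e-06). The overlapping AACGCG was at 2.28% of members against 10.5% of other peaks (Fisher's exact test, adjusted p = 2.10e-06). The share of GGCGCA was 2.03% in members against 9.36% in other peaks. That of AGTGCG was 2.28% in members against 8.92%, and that of GAGCGC was 4.82% against 12.2%. GACGCA was at 17.3% of members and 17.8% of other peaks (Fisher's exact test, adjusted p = 1). ACCGTA was at 4.82% of members and 8.11% of other peaks (Fisher's exact test, adjusted p = 0.180). Its share was 9.43% in promoter-window peaks (Fisher's exact test, adjusted p = 0.0255) and 4.62% in intergenic peaks. Against intergenic peaks alone 0 6-mers passed by Fisher's exact test in either direction; 49 more frequent and 41 less frequent had an unadjusted p under 0.05.

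3 longer sequences were chosen after their values were seen. AGACGCAGA, which contains GACGCA, was at 48 members (12.2%), 0.508% of flanks, 9.26% of other peaks and 0.440% of intron windows. GTACGCAAA was at 8 members (2.03%), 0.761% of flanks and 2.38% of other peaks. CGTGTTCTC was at 3 members, all among the strongest 132, and at 0.183% of other peaks. Of these members 1 was in Y111B2A.12 and the others shared intron 15 of pqn-41, so they are not separate loci. Because the 3 longer sequences were chosen for their values, no test was attached.

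Some members share a longer stretch of sequence. With 301 bp around each summit aligned against all others by blastn, 24 of 394 members (6.09%) matched another peak of the list with at least 70% identity over 100 bp, against 222 of 3824 other peaks (5.81%, Fisher's exact p = 0.821). A group of 12 linked members had hosts gvd-1, F54A3.2, pqn-42, pqn-41 (3 members), F53A3.1 (2), mboa-6, frl-1 (2) and ppgn-1, with pooled signals of 42.6 to 120. Another group of 4 held stronger members, in F28F8.7 (355), mod-5 (261), brc-1 (181) and rcor-1 (87.8). Each of these matched 7 to 10 peaks outside the members, and F28F8.7 is among the 20 strongest members above. Groups of 2 linked set-18 (156) with F53F1.3 (72.3), and Y17D7C.6 (263) with Y57G11C.22 (145). Reads from such copies may be placed at either, and how the authors treated such reads is not stated in the labels or listings. Windows of 2 members of the group of 12 are shown because they share a stretch around TTTGCGTAC, the reverse complement of GTACGCAAA. They lie at chrII:456471-456571 in gvd-1 and chrII:2456076-2456176 in pqn-42, and capitals mark the same sequences as above.
gvd-1: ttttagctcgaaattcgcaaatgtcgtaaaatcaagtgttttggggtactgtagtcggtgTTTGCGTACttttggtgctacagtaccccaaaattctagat
pqn-42: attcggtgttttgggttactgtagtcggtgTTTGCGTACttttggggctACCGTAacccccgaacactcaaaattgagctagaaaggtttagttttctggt

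In gvd-1 the pooled signal was 120, with 58.0 in replicate 1 and 64.0 in replicate 2. In pqn-42 the pooled signal was 53.9, with 41.1 in replicate 1 and 15.2 in replicate 2. The strongest member with GTACGCAAA, in col-72, had replicate signals of 260 and 188 and was not in the group of 12.

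The gene unc-119, mutated in the strain and, as background, the usual marker gene of such transgenes, held 3 members, all in its first intron of 3747 bp. Their pooled signals were 71.7, 47.3 and 44.5. The replicate signals were 58.3 in replicate 1 and 14.0 in replicate 2 at the first, 33.5 and 18 at the second, and 38.9 and 38.1 at the third. The replicates lay far apart at the first and close together at the third. Whether these peaks stem from the transgene was not tested. No member lay in lsy-2 itself, or in cog-1, die-1 or che-1, which act in the fate of the ASE neurons. The member nearest to lsy-2 was in F52D2.7, 124686 bp away.

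The rule drew a line through a continuum of positions. There were 788 intronic peaks in all, of which 394 lay in a promoter window and 394 outside it. Just outside the windows stood the members in ptr-24, 14 bp from an edge with a pooled signal of 47.2, and in E01G4.3, 19 bp away with 72.9. Just inside a window, and so left out, stood Y105E8A.13, 4 bp from an edge with 54.7, and K11D2.4, 5 bp away with 170.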

How the data were processed

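Peak lists of 2 ChIP-seq replicates, their pool and the reproducible (IDR) list on ce11 were used. Per the text listings deposited with them, each was called against a control alignment; the labels and listings name no aligner or peak caller. The signal of each peak is the deposited value of the authors, with an unknown statistic and no read counts, so the depth is unknown. The deposited −log10 q value, the same 4.16 for 100% of the IDR peaks, was not used. Each list before IDR holds 30000 peaks.

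Positions were counted from 1 and compared with the Ensembl release 115 annotation and RefSeq sequence of WBcel235, the same assembly as ce11. Replicate values are the nearest summit within 200 bp. Two-sided Fisher's exact tests compared shares, and intervals (95%) cover counting error only. Tests and intervals took peaks as independent units. 6-mers were tested at an adjusted p of 0.05, with Benjamini-Hochberg adjustment. Alternatives covered other windows, starts, replicates and comparison peaks.

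Named were hosts of the 20 strongest members, the 10 hosts with the most members, up to 4 hosts per list, and lsy-2, che-1, die-1 and cog-1; lsy-6 was not analysed here. The members, lists and rules were chosen with earlier results of these data known. Peaks in gvd-1, pqn-42 and unc-119, the longer sequences, the comparison by class, host promoter peaks, rank classes, shared sequence, base composition by distance, the strand of 6-mers and the class of neighbouring peaks were added after values were seen. Tests used scipy 1.17.1, tables pandas 2.3.3, plots matplotlib 3.10.9 and alignments blastn, under Python 3.11.15.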

Additional observations from a re-analysis of the deposited data

How the results depend on the processing

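No paired analysis was possible because the series has 1 group. With the strongest peaks of each replicate alone, there were 410 to 431 members in 311 to 328 hosts, and the shares above the median signal (17.6 to 25.2 points lower in members), near another summit (14.6 to 15.0 points higher) and above the median G + C (12.6 to 14.7 points lower) kept their direction and passed. The difference on X was -0.139 to 0.901 points. Less frequent 6-mers than in flanks numbered 46 to 65. Support by both replicates has no value without a replicate.

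Exclusion from 2000 bp upstream left 55 and 44 6-mers more and less frequent than in flanks, and 9 and 16 against other peaks; GAGAGA against other peaks was then 8.46 points higher in members and no longer passed (exact test, adjusted p = 0.0951). Exclusion from 500 bp gave 16.5 members per Mb, and 49 and 65 6-mers against other peaks. In the stronger part of the list there were 122 members in 106 hosts, 4.63 per Mb, with 25 and 16 6-mers against flanks and 4 and 0 against other peaks (unadjusted p under 0.05: 114 and 70); the deficit in the strongest peaks of both replicates shrank to -0.935 points (Fisher's exact p = 0.236) and support by both replicates was 0.352 points higher in members (exact p = 1). That support was -3.57 points with summits matched within 100 bp (exact p = 0.00191) and 0.418 points higher within 500 bp (exact p = 0.391).

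With 6-mers within 25 bp, 43 and 43 differed from flanks and 18 and 25 from other peaks; within 100 bp, 139 were more frequent than in flanks and 56 and 67 differed from other peaks. Against promoter-window peaks alone 78 and 96 differed, against intergenic peaks 0 and 0. The share of peaks above the median G + C changed sign with the window: it was 2.76 points higher in members within 100 bp, which did not pass (exact p = 0.315), and 17.0 points higher within 200 bp, which passed (exact p = 1.17e-10). 6-mer differences that changed sign, none of them past the threshold, were GACGCA against other peaks (0.199 points with all starts, 8.04 in stronger peaks, 0.942 within 100 bp), ACCGTA against flanks (-1.02 within 100 bp), and GAGAGA (-2.75) and ACCGTA (0.201) against intergenic peaks. Some alternatives have fewer peaks, and the cause of these changes was not tested. Depth is unknown, and a peak that was not called is not shown to be unbound.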
